A study of Mus with 12 samples.

Results

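The comparison set F4/80-selected cells from the contralateral kidneys of Aif1 knockout (KO) mice against those from the contralateral kidneys of wild-type (WT) mice. Its members were chosen by the labels alone: the 6 of 12 libraries tagged as having had no ischemia, 3 from KO mice (mice 17, 23 and 32) and 3 from WT mice (mice 12, 26 and 36), and all 734 endogenous genes among the 768 features of the NanoString panel. The other 6 libraries came from the injured left kidneys of the same 6 mice. KO mice carried Aif-1 -/- and WT mice Aif-1 +/+. In every mouse of both genotypes the left kidney had undergone 30 min of ischemia, and the right kidney used here was taken at day 4 after it. The contralateral kidneys are thus uninjured kidneys of injured animals, not kidneys of untouched mice. The labels used here do not state age, sex, strain or how the null allele was made. Each library came from a different mouse, so the 3 libraries of a group are separate animals.

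Kidney resident macrophages lie between the tubules, sample filtered proteins and immune complexes, and present antigen through MHC class II. They depend on signalling through the receptor Csf1r, and in mice they carry F4/80, the product of Adgre1, at high levels. Aif1 encodes a calcium-binding protein, also called Iba1, that bundles actin and takes part in membrane ruffling and phagocytosis, and its antibody is widely used to stain macrophages and microglia. The cells here were released by digestion and pulled out with a biotin-labelled F4/80 antibody on immunomagnetic particles. Such a fraction is enriched, not pure, and a count in it can fall with fewer cells of a type as well as with less RNA per cell, which cannot be told apart here.

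Total counts were 271660 to 285225 in KO libraries and 277656 to 888124 in WT libraries. The library of WT mouse 12 stood apart. The geometric mean of 20 housekeeping genes was 157.3 to 168.6 in KO libraries, against 879.2 in WT mouse 12, 135.5 in WT mouse 26 and 272.4 in WT mouse 36, while the positive controls, RNA added at known amounts, differed by 1.12-fold over the 6. Set against the median of the other 5 libraries, raw counts in WT mouse 12 were 6.08 times as high for the median housekeeping gene and 1.85 times as high for the median endogenous gene, and the genes did not share in this evenly. Of 632 genes kept for testing, 259 were within 1.5-fold of that median and 125 were over 5-fold above it. The ratio was 17.4 for Ctsd, 14.0 for Egf and 10.9 for Klk1, but 1.14 for Adgre1 and 1.22 for Cd74. After scaling, this library held the highest value for 254 and the lowest for 289 of the 632 genes. Results below are therefore given with and without it. The labels used here do not state how much RNA was loaded or which cartridge held each library.

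**Figure D1:**
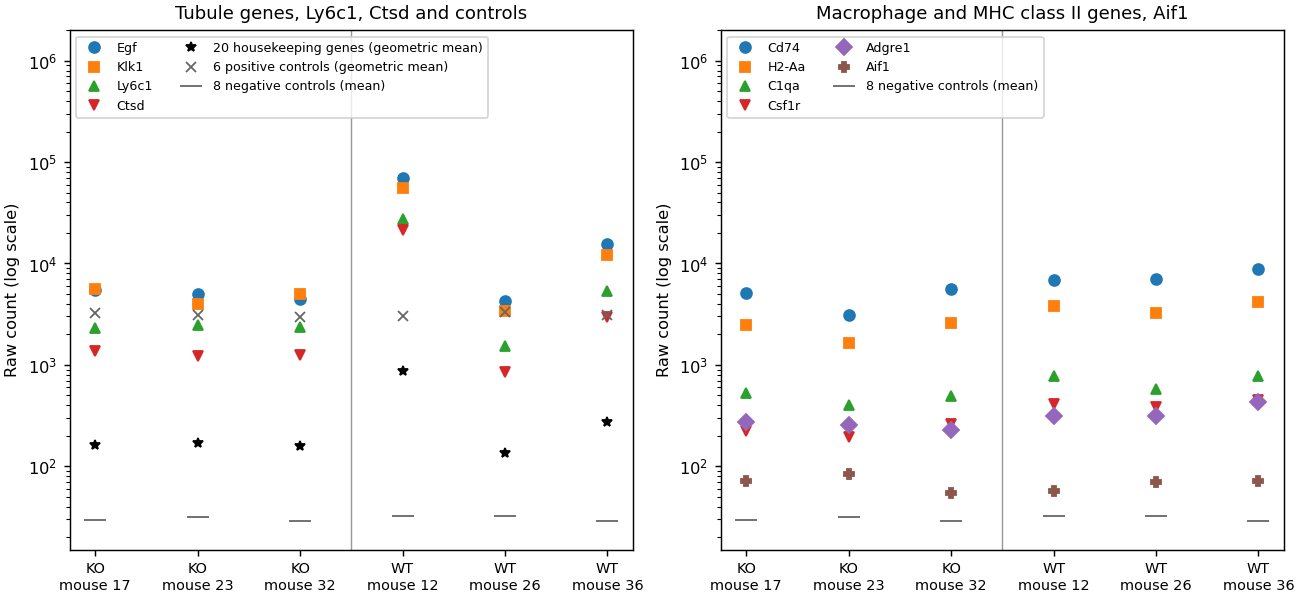
Raw counts (log scale) in the 6 contralateral libraries, KO mice left and WT mice right, for 4 genes with the controls (left panel) and for macrophage and MHC class II genes with Aif1 (right panel). Egf, Klk1, Ly6c1, Ctsd and the housekeeping genes stand high in WT mouse 12, while the macrophage genes there lie near the other WT libraries.

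The targeted gene did not separate the groups. Aif1 had 71, 83 and 54 raw counts in KO mice 17, 23 and 32, against 57, 70 and 72 in WT mice 12, 26 and 36. The groups overlapped, and all 6 values lay close to the highest single negative control, a probe with no target, which read 38 to 58 over the libraries. The fitted difference (KO minus WT) was 0.50 ± 0.37 on the log2 scale (SE, n = 3 each), with an adjusted p of 0.55 by edgeR's quasi-likelihood test with Benjamini-Hochberg adjustment and a 95% interval from -0.28 to 1.27. On log2 normalised counts alone the difference was 0.59, and the exact permutation test, two-sided, gave p = 0.4; groups of 3 and 3 can give no p under 0.1. Without WT mouse 12 the fitted difference was 0.16, and on raw counts the log2 difference was 0.05. Which stretch of the transcript the probe reads, and whether the deletion spares it, is not known here, so the probe checks neither the deletion nor the labels, and KO and WT follow the labels throughout.

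Adgre1, the gene of the selection antigen, was read well above background in every library. Its raw count was 275, 253 and 230 in KO mice, against 314, 312 and 426 in WT mice. Every KO library was below every WT library before scaling. After scaling it averaged 305 ± 29.8 normalised counts in KO and 307 ± 122 in WT mice (SD, n = 3 each), and the groups overlapped. The fitted difference was 0.00 ± 0.41 (edgeR adjusted p = 0.99), and -0.32 ± 0.28 without WT mouse 12.

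The baseline profile of the selected cells from contralateral kidney was led by tubule genes, MHC class II genes and early response genes. A probe's efficiency is not known, so counts of different genes are set side by side as counts and not as transcript numbers. Egf, a growth factor of the distal tubule, took 4.97% ± 2.75 of endogenous counts, and Klk1, the kallikrein of the distal nephron, 4.25% ± 1.99 (SD, n = 6 mice). Cd74, the invariant chain that guides MHC class II molecules, took 3.24% ± 1.48, and Atf3, a stress-induced transcription factor, 2.31% ± 0.452. The order of these means is not that of every library. In WT mouse 12 Egf took 10.1%, Klk1 7.95% and Cd74 0.987%. In KO mouse 32 and WT mouse 26 Cd74 took 3.94% and 5.2%, more than Egf or Klk1. In the other libraries it took less than either. The 25 genes with the highest mean share together held 32.6%, 28.5% and 35.2% in KO mice 17, 23 and 32, against 47.6%, 34.9% and 38.9% in WT mice 12, 26 and 36. WT mouse 12 had the highest share for 15 of these 25 genes and the lowest for 7, among them Cd74 and the MHC class II chain genes H2-Aa, H2-Ab1 and H2-Eb1. The 25 also held the MHC class I heavy chain genes H2-K1 and H2-D1 and the peptide-loading chaperone gene Calr, the chemokine gene Ccl3, the interferon-induced Mx1, and Ctsd, which encodes a lysosomal protease.

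**Figure D2:**
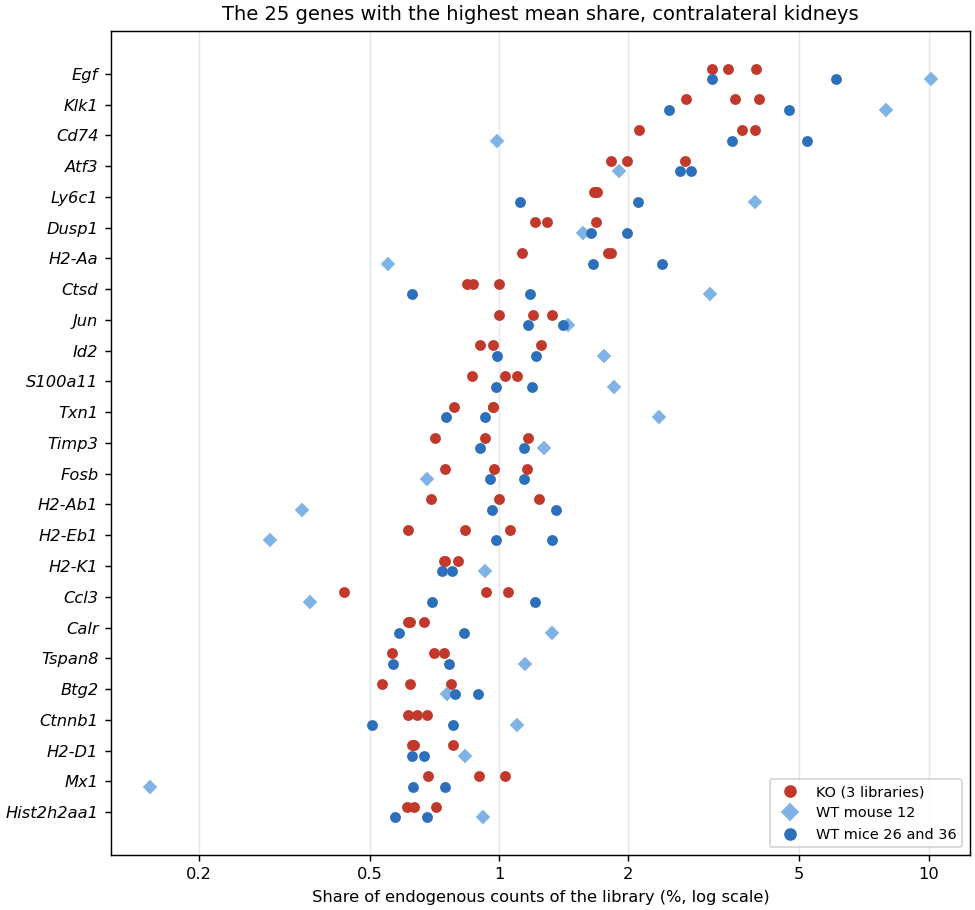
Share of endogenous counts (%, log scale) of the 25 genes with the highest mean share, one point per contralateral library, with KO libraries above and WT libraries below each gene's line. Egf and Klk1 have the highest mean shares, though Cd74 is above both in KO mouse 32 and WT mouse 26. The diamonds of WT mouse 12 lie at the right for tubule genes and at the left for Cd74, H2-Aa, H2-Ab1 and H2-Eb1.

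Most macrophage markers on the panel were read above background in all 6 libraries. Of 20 macrophage markers on the panel, 16 exceeded the background threshold of every library, which was the mean plus 2 SD of its negative controls. C1qb, a subunit of the complement initiator C1q, had the highest counts of the list, with 758, 443 and 668 in KO mice, against 1197, 761 and 1105 in WT mice. C1qa had 523, 404 and 491 in KO mice, against 776, 577 and 769 in WT mice, and Apoe, which carries lipid, had 354, 225 and 582, against 968, 642 and 588. The 20 markers summed to 3.06%, 2.30% and 2.87% of endogenous counts in KO mice and to 1.04%, 3.62% and 2.53% in WT mice, lowest in WT mouse 12. In raw counts their sum was highest in WT mouse 12, at 7222, against 3370 to 6415 in the other libraries. Marco and Cd84 were the 2 markers not kept for testing, with raw counts of 34 to 67 and 19 to 40 in KO mice and 42 to 47 and 37 to 68 in WT mice. The efferocytosis receptor gene Timd4, a marker of resident macrophages, was kept and read 83, 118 and 75 in KO mice, against 78, 84 and 103 in WT mice.

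Genes of the MHC class II pathway summed to more counts than the macrophage markers in every library. Its 10 members on the panel exceeded background in every library and summed to 7.92%, 5.06% and 8.68% of endogenous counts in KO mice and to 2.56%, 11% and 7.63% in WT mice. The 14 MHC class I genes summed to 2.82%, 2.81% and 3.01% in KO mice and to 3.58%, 2.67% and 2.92% in WT mice, above the class II sum only in WT mouse 12. H2-Aa, which encodes the alpha chain of I-A, averaged 2240 ± 517 raw counts in KO and 3760 ± 457 in WT mice (SD, n = 3 each), and H2-Ab1, its beta chain, 1390 ± 374 and 2240 ± 333. Cd74 averaged 4600 ± 1320 in KO and 7590 ± 1080 in WT mice. KO mouse 23 was the lowest library for each of these 3 genes.

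In every library the tubule markers summed to more counts than the macrophage markers, although the cells had been selected for F4/80. Egf had 5496, 4990 and 4452 raw counts in KO mice, against 70041, 4270 and 15458 in WT mice. Klk1 had 5584, 3994 and 5042, against 55136, 3387 and 12029, and Cdh1, the epithelial cadherin, 653, 655 and 588, against 5909, 471 and 1443. The 5 tubule and epithelial markers summed to 8.56%, 6.67% and 7.17% of endogenous counts in KO mice and to 19.0%, 6.05% and 11.5% in WT mice. KO libraries thus lay between the WT mice 26 and 36 and well below WT mouse 12. Per count of Adgre1 there were 20, 19.7 and 19.4 counts of Egf in KO mice and 223, 13.7 and 36.3 in WT mice. Havcr1, which marks injured proximal tubules, had low counts, with 72, 83 and 68 counts in KO and 77, 78 and 102 in WT mice.

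Early response genes were also heavily counted. The 17 genes of this list summed to 7.60%, 7.96% and 9.56% of endogenous counts in KO mice and to 9.03%, 9.71% and 9.43% in WT mice, a narrower spread than for tubule or MHC class II genes. Atf3 had 2522, 2904 and 3858 raw counts in KO mice, against 13178, 3814 and 6683 in WT mice. Dusp1, a phosphatase that ends MAP kinase signalling, had 1788, 1775 and 2383, against 10901, 2707 and 4158. Jun, a component of the AP-1 transcription factor, had 1659, 1466 and 1898, against 10088, 1925 and 2980. For Dusp1 and Jun every raw KO count was below every raw WT count, as for 70 of the 632 genes tested (11.1%). For Atf3 KO mouse 32 lay just above WT mouse 26. After scaling the groups stayed apart for Dusp1 and overlapped for Jun.

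Markers of NK, B and T cells were low, and those of other leukocytes ranged more widely. None of 3 NK cell markers was kept, and their raw counts ran from 15 to 53. Ms4a1, a B cell gene, had 102, 157 and 91 counts in KO and 103, 110 and 139 in WT mice. Of 7 T cell markers, 3 exceeded background in all 6 libraries, and the raw counts of the list ran from 28 to 143. Among 17 neutrophil markers, 8 exceeded background in all 6, with counts up to 284. The 13 dendritic cell markers summed to 1258, 1240 and 1074 counts in KO mice and to 1863, 1157 and 1600 in WT mice, against 3370 to 7222 for the macrophage markers over the 6 libraries. The 16 markers of mast cells, basophils and eosinophils summed to 1008, 1205 and 809 in KO mice and to 1539, 822 and 1206 in WT mice, and the transcription factor gene Gata2 had the highest count among them, 721 in WT mouse 12. Chil3, a lectin gene of monocytes and alternatively activated macrophages, had counts well above the threshold, with 511, 718 and 387 in KO and 373, 423 and 659 in WT mice. Ly6c1, a gene of monocytes and also of endothelium, had 2305, 2475 and 2364 in KO mice, against 27334, 1525 and 5353 in WT mice, a spread like that of the tubule genes. Endothelial Cd34 had 249, 364 and 396 counts in KO mice, against 1994, 163 and 520 in WT mice. Over the whole panel, 513 of 734 genes exceeded background in all 6 libraries and 48 in none. The number per library was 621, 625 and 597 in KO mice, against 637, 519 and 670 in WT mice, with the fewest in WT mouse 26.

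No gene differed between the genotypes by the test across the panel. Genes were kept if 3 or more of the 6 libraries held at least 52.5 raw counts. Of these 632 genes, 0 were called (0%) by edgeR's quasi-likelihood test with Benjamini-Hochberg adjustment, and the smallest adjusted p was 0.55. At an unadjusted p under 0.05 there were 34 genes (5.38%), 10 higher (1.58%) and 24 lower (3.8%) in KO mice. DESeq2 and limma with voom also called 0. The median 95% interval reached 0.75 on the log2 scale to either side of the estimate, or 1.68-fold, and 0.44, or 1.36-fold, without WT mouse 12. These intervals are for single genes and are not adjusted for the number tested, so they are no detection limit. Larger fitted differences, such as -1.70 for Ctsd, were not called either. The result does not show that the genotypes were alike. Leaving out another WT library changed the count: without WT mouse 26, 16 genes were called, all 16 lower in KO mice and with their highest normalised count in WT mouse 12, and 10 of them were among the 20 genes described next. Normalised counts of all KO libraries lay above all WT libraries for 54 genes (8.54%) and below them for 23 (3.64%). Without WT mouse 12 these counts were 55 (8.7%) and 42 (6.65%).

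The genes with the smallest unadjusted p, 15 lower and 5 higher in KO mice, each had an adjusted p of 0.55. WT mouse 12 held the highest normalised count for each of the 15 and the lowest for each of the 5. All 20 kept their sign without that mouse, as did 481 of all 632 genes. The 20 were picked from a fit that held the remaining libraries too, so their kept sign is not separate support. Among genes of lipid mediator metabolism, Enpp2, which encodes autotaxin, the enzyme that makes lysophosphatidic acid, had 81, 84 and 81 raw counts in KO mice, against 791, 98 and 197 in WT mice. Every KO library was below every WT library before and after scaling. The fitted difference was -1.28 ± 0.41 (SE, n = 3 each; edgeR unadjusted p = 0.00579), and without WT mouse 12 it was -0.57 ± 0.20 (unadjusted p = 0.00724). Lta4h, which makes leukotriene B4, had 113, 116 and 97 counts in KO mice, against 842, 117 and 219 in WT mice, with fitted differences of -1.01 and, without WT mouse 12, -0.36. On the receptor side of the leukotrienes, Cysltr1, the receptor of the cysteinyl class, had 89, 125 and 89 counts in KO mice, against 75, 62 and 114 in WT mice. Its fitted difference was 0.78, and 0.45 without WT mouse 12. Its raw counts overlapped between the groups.

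Man2b1 and Ctsd, which encode lysosomal enzymes, were also among them. Man2b1, the lysosomal alpha-mannosidase, had 141, 114 and 133 raw counts in KO mice, against 983, 149 and 298 in WT mice. The groups did not overlap, and the fitted difference was -1.04 ± 0.42, or -0.50 ± 0.22 without WT mouse 12. Ctsd had 1381, 1233 and 1239 counts in KO mice, against 21523, 853 and 2992 in WT mice, so that WT mouse 26 lay below every KO library. Its fitted difference of -1.70 ± 0.77 came to -0.20 ± 0.39 without WT mouse 12. For the 7 lysosomal genes tested the median was -0.78, against 0.02 for all 632 genes, and without that mouse -0.20 against 0.00. All 7 had a negative fitted difference in both fits, and 0 were called. Of all 632 genes, 311 were negative with all 6 libraries and 308 without that mouse. The fits share every library but that of WT mouse 12, so the kept sign is not separate support.

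The remaining genes of the 20 with lower values in KO mice had varied roles. They were Cxcl12, the chemokine ligand of Cxcr4 (-0.99), Enpep, an angiotensin-cleaving aminopeptidase of the proximal tubule (-1.21), the linker histone gene Hist1h1c (-1.37), the tubulin gene Tuba4a (-1.27), Map2k2, a kinase of the ERK pathway (-1.06), the translation repressor gene Eif4ebp2 (-0.83), Nampt, which makes an NAD precursor (-1.44), Rictor, a subunit of an mTOR complex (-0.81), the actin-severing Gsn (-1.19), the tetraspanin gene Cd151 (-1.29) and the adhesion gene Nectin2 (-1.11). Their values without WT mouse 12 ran from -0.16 for Cd151 to -0.47 for Tuba4a. Of the 24 genes lower at an unadjusted p under 0.05, 23 had their highest normalised count in WT mouse 12, where their raw count was 5.63 to 17.4 times the median of the other libraries. The part of the amount of RNA and of tubule RNA in these differences was not tested.

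The genes of the 20 with higher values in KO mice all had low counts. Batf, a transcription factor of lymphocytes and dendritic cells, had 65, 79 and 56 raw counts in KO mice, against 48, 38 and 76 in WT mice. Icos, a costimulatory receptor of T cells, had 95, 143 and 77 counts, against 72, 62 and 117. For both genes the raw groups overlapped, and the normalised ones did not. The fitted differences were 0.82 ± 0.35 for Batf and 0.82 ± 0.36 for Icos, and 0.49 and 0.48 without WT mouse 12. Adamts17, a secreted metalloprotease (0.86), and Ido2, a tryptophan-degrading enzyme (0.81), completed the set. The 10 genes higher at an unadjusted p under 0.05 had raw counts of 28 to 159 and their lowest normalised count in WT mouse 12. Raw groups overlapped for 10 of these 10.

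**Figure D3:**
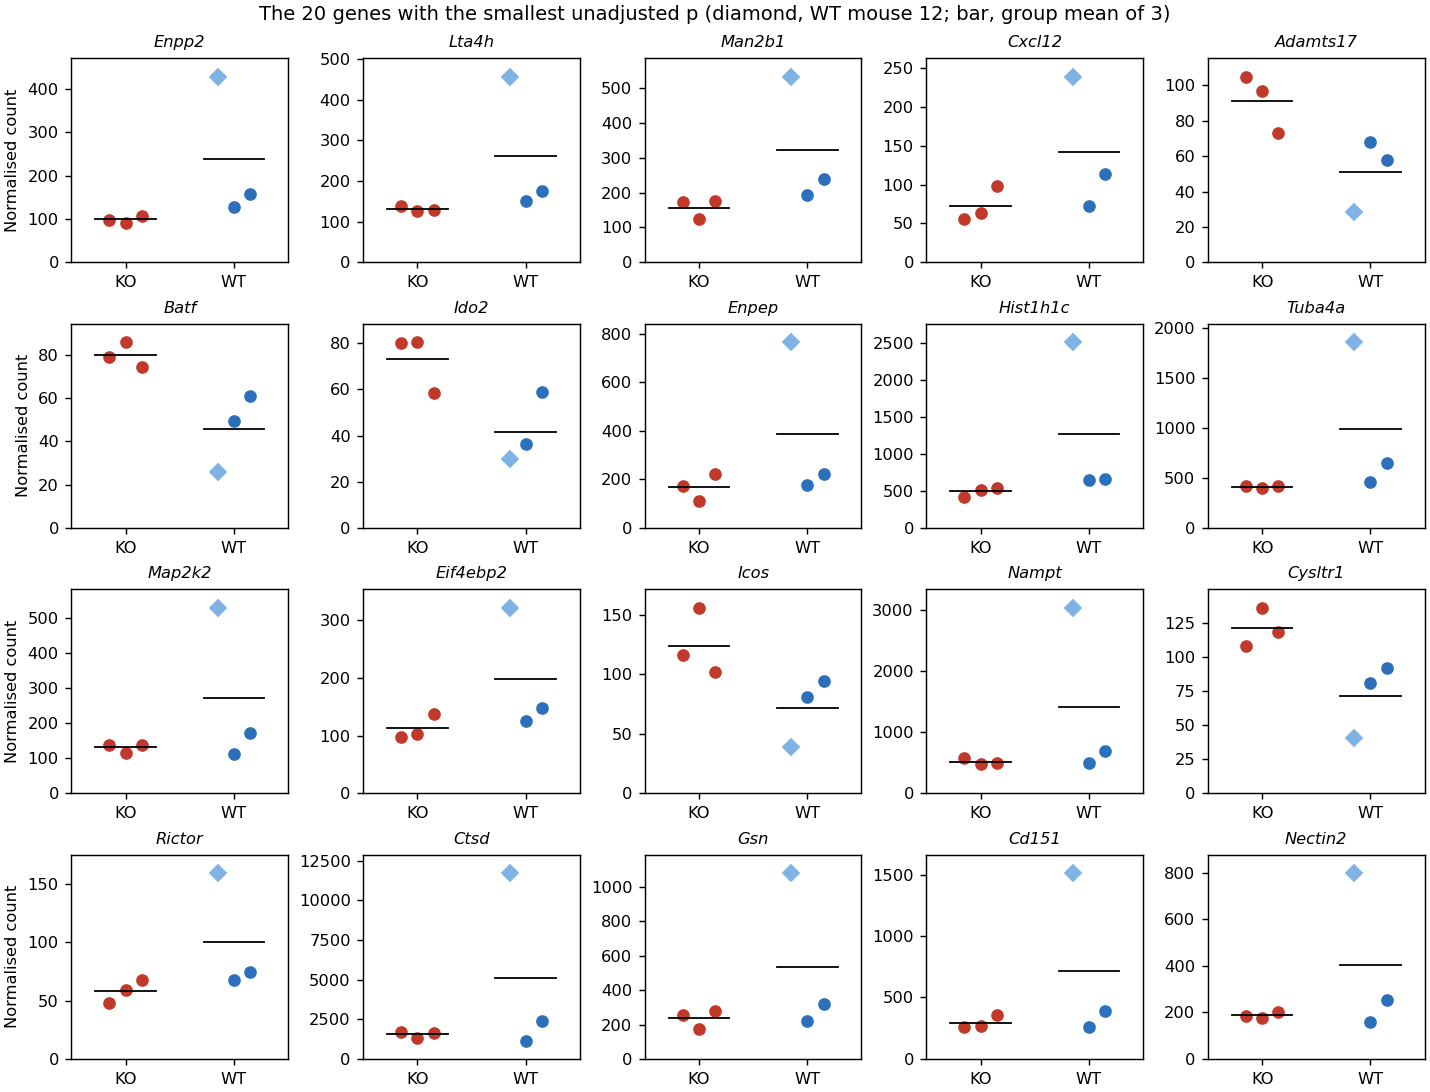
Normalised counts (linear axes from 0) of the 20 genes with the smallest unadjusted p, KO mice left and WT mice right in each panel, one point per library and a bar at each group mean (n = 3). WT mouse 12 (diamond) is the highest point for the 15 genes lower in KO mice and the lowest for the 5 genes higher in KO mice.

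Without WT mouse 12 a single gene was called, 1 of 632 (0.158%). S100a9, a subunit of calprotectin from neutrophils and monocytes, had 36, 35 and 75 raw counts in KO mice, against 84, 284 and 61 in WT mice. The value of WT mouse 26 stood far above the other 5, and KO mouse 32 lay above WT mouse 36. The fitted difference without WT mouse 12 was -1.79 ± 0.38 (edgeR adjusted p = 0.0205), and that of all 6 libraries was -1.34 ± 0.63 (adjusted p = 0.55). With WT mouse 26 left out and WT mouse 12 kept it was 0.34, so the negative difference rests on WT mouse 26. After background subtraction without WT mouse 12 the gene was not called. S100a9 was also the gene called without WT mouse 36, at -1.80 ± 0.41 (edgeR adjusted p = 0.00876), in a fit that held WT mouse 26. S100a8, the partner subunit, showed the same mouse as highest, with 73, 83 and 81 counts in KO mice and 88, 198 and 116 in WT mice. Its fitted difference was -0.45 ± 0.46, and -0.88 ± 0.25 without WT mouse 12 (edgeR adjusted p = 0.588 and 0.377).

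In the fit that left out WT mouse 12, 23 genes (3.64%) had an unadjusted p under 0.05, 11 higher (1.74%) and 12 lower (1.9%) in KO mice, and they included S100a9, S100a8 and leukocyte genes of both directions. Of the 18 macrophage markers 2 were among them, Csf1r and Cd68, of the 6 T cell markers 1, and of the 10 MHC class II genes 0. Apart from S100a9 and S100a8, the genes of this paragraph each had an edgeR adjusted p of 0.993 and were not called. Those not described above are named after their values were seen, except Csf1r and Cd44. Csf1r, the receptor for the macrophage growth factors, stood at -0.67 ± 0.29 in that fit and at -0.39 ± 0.42 with all 6 libraries. Ptprc, the pan-leukocyte CD45 gene, stood at -0.59 and -0.36, the Fc receptor gene Fcgr3 at -0.56 and -0.23, the lysosomal membrane gene Laptm5 at -0.73 and -0.39, and the phagocyte marker Cd68 at -0.46 and -0.26. Rgs1, which dampens chemokine receptor signalling, stood at -0.69 and -0.43, and Cxcr4 at -0.52 and -0.43. WT mouse 26 held the highest normalised count for each of these lower genes from Csf1r to Cxcr4. Without WT mouse 12 the groups overlapped for Ptprc, Laptm5 and Cxcr4 and stayed apart for Csf1r, Fcgr3, Cd68 and Rgs1. With WT mouse 26 left out and WT mouse 12 kept, the fitted differences of Fcgr3 and Laptm5 turned slightly positive. Enpp2 and Man2b1, described above, and Angpt2 were the other lower genes. On the positive side, the hyaluronan receptor gene Cd44 stood at 0.55 and 0.66 and Ido2 at 0.55 and 0.81. Adamts17, Batf, Icos and Cysltr1, described above, were also higher, as were Lamp3, a gene of mature dendritic cells, Serpinb2, Rasal1, Rhoj and Col15a1.

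Before any scaling, many macrophage, MHC class II and complement genes had lower counts in all 3 KO libraries than in all 3 WT libraries. This ordering was seen in the raw counts and then tallied, so it carries no test. Of the 632 genes, 70 (11.1%) had every KO count below every WT count, and 0 (0%) had every KO count above. The share was 8 of 10 (80%) for MHC class II genes, 10 of 18 (55.6%) for macrophage markers and 5 of 7 (71.4%) for complement genes, which share C1qa, C1qb and Itgam with the macrophage markers. Other lists lay between these and the share of all genes. It was 3 of 7 (42.9%) for lysosomal genes and 5 of 16 (31.2%) for lipid and energy metabolism. For chemoattractant receptors it was 5 of 19 (26.3%), and for phagocytosis genes 4 of 16 (25%). It was 0 of 4 for tubule markers, 0 of 14 for MHC class I genes and 0 of 19 for interferon response genes. Of the 70 genes, 20 were in the macrophage, MHC class II or complement lists.

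Csf1r is an example of this ordering, with 225, 195 and 261 raw counts in KO mice, against 413, 387 and 448 in WT mice. For Cd74 the counts were 5099, 3102 and 5603 in KO mice, against 6847, 7085 and 8833 in WT mice. Cd68 had 99, 80 and 102, against 187, 129 and 175. WT mouse 26 had the lowest housekeeping level of the 6 libraries and lay above every KO library for these 3 genes. It also had the lowest tubule share (6.05%) and the highest macrophage share (3.62%). The part of RNA amount and of cell make-up in this ordering was not tested. Other genes ordered this way, named after their values were seen, were Cd14, a coreceptor for bacterial lipopolysaccharide, the fractalkine receptor gene Cx3cr1, the anaphylatoxin receptor genes C3ar1 and C5ar1, the class II protease gene Ctss, the adaptor gene Tyrobp, the chemokine genes Ccl3, Ccl4 and Cxcl2, and Il1b. Against the count of Adgre1 in the same library the order was lost: there were 0.818, 0.771 and 1.13 counts of Csf1r per count of Adgre1 in KO mice and 1.32, 1.24 and 1.05 in WT mice, and 18.5, 12.3 and 24.4 of Cd74, against 21.8, 22.7 and 20.7.

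**Figure D4:**
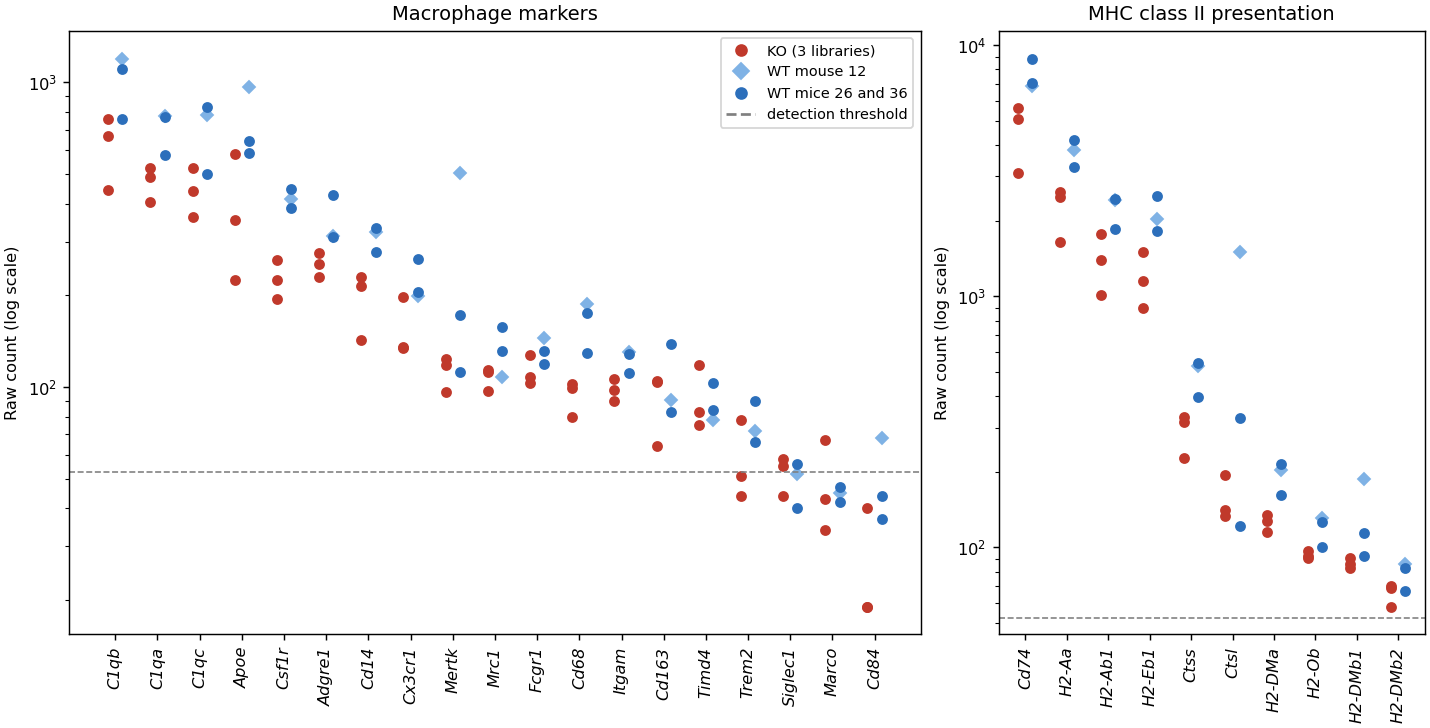
Raw counts (log scale) of macrophage markers and of the MHC class II genes on the panel, KO libraries left and WT libraries right of each gene's position, with the detection threshold of 52.5 as a dashed line. The KO points lie below all WT points for 8 MHC class II genes and for macrophage markers such as Csf1r, Cd68, C1qa, C1qb and Adgre1.

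Scaling reduced these differences, and the test called none. The median fitted difference of 18 macrophage markers was -0.05 with 11 negative values, against 0.02 for all genes, and -0.29 with 15 negative values without WT mouse 12. That of the 10 MHC class II genes was -0.18, and -0.37 without that mouse, and that of the 7 complement genes was -0.05, and -0.21 without it. Under housekeeping scaling, where all genes had a median of 0.33, the medians with all 6 libraries were 0.12, -0.01 and 0.24, so the macrophage and complement medians changed sign. Under positive control scaling, where all genes had a median of -0.58, they were -0.53, -0.68 and -0.56. The 3 medians thus lay below that of all genes under housekeeping scaling, while under positive control scaling those of the macrophage and complement lists lay slightly above it. All 3 medians lay below that of all genes under both scalings without WT mouse 12: they were -0.29, -0.38 and -0.21 under housekeeping scaling, against 0.04, and -0.47, -0.55 and -0.39 under positive control scaling, against -0.20. WT mouse 26, which stayed in those fits, had the highest share of macrophage (3.62%) and class II (11%) counts of the 6 libraries. List medians without WT mouse 26 are not given here. When it was left out, the fitted differences of Cd74 and H2-Aa turned positive, and that of H2-Eb1 stayed negative. With all 6 libraries, the fitted difference within the class II list was -0.32 ± 0.56 for H2-Eb1, -0.24 ± 0.66 for Cd74 and -0.23 ± 0.60 for H2-Aa. The largest negative value in the macrophage list, -0.47 ± 0.33 for the efferocytosis receptor gene Mertk, came from 118, 124 and 96 raw counts in KO mice, against 504, 112 and 173 in WT mice. Siglec1, the sialoadhesin of resident macrophages, stood at 0.61 ± 0.34.

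Across the other gene lists the medians also moved with the library of WT mouse 12. In none of the 29 lists with a tested gene was a gene called with all 6 libraries. Tubule and epithelial markers had the lowest median, -1.21 over 4 genes, with Egf at -1.64 ± 0.78, Klk1 at -1.30 ± 0.77 and Cdh1 at -1.12 ± 0.61. Without WT mouse 12 their median was -0.25, with Egf at -0.61. Early response genes had a median of -0.51 over 16 genes, 14 of them negative, with Nr4a1 at -0.99 ± 0.55, and -0.20 without that mouse. T cell markers had the highest median, 0.48 over 6 genes, all positive, and 0.18 without that mouse. Of all 632 genes, 321 were positive. Raw counts of the T cell list ran from 28 to 143, so they carry much background. Under positive control scaling its median was 0.03 with 2 negative values, against -0.58 for all genes. Between the tubule and T cell medians, the median was 0.38 for 17 C-C chemokines (0.13 without that mouse), -0.03 for 12 other chemokines (-0.01), 0.36 for 19 chemoattractant receptors (0.04), 0.35 for 14 genes of the interleukin-1 family and inflammasome (0.13) and 0.28 for 14 pro-inflammatory cytokines and enzymes (0.09). Of the 29 medians, 26 were nearer 0 without WT mouse 12.

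**Figure D5:**
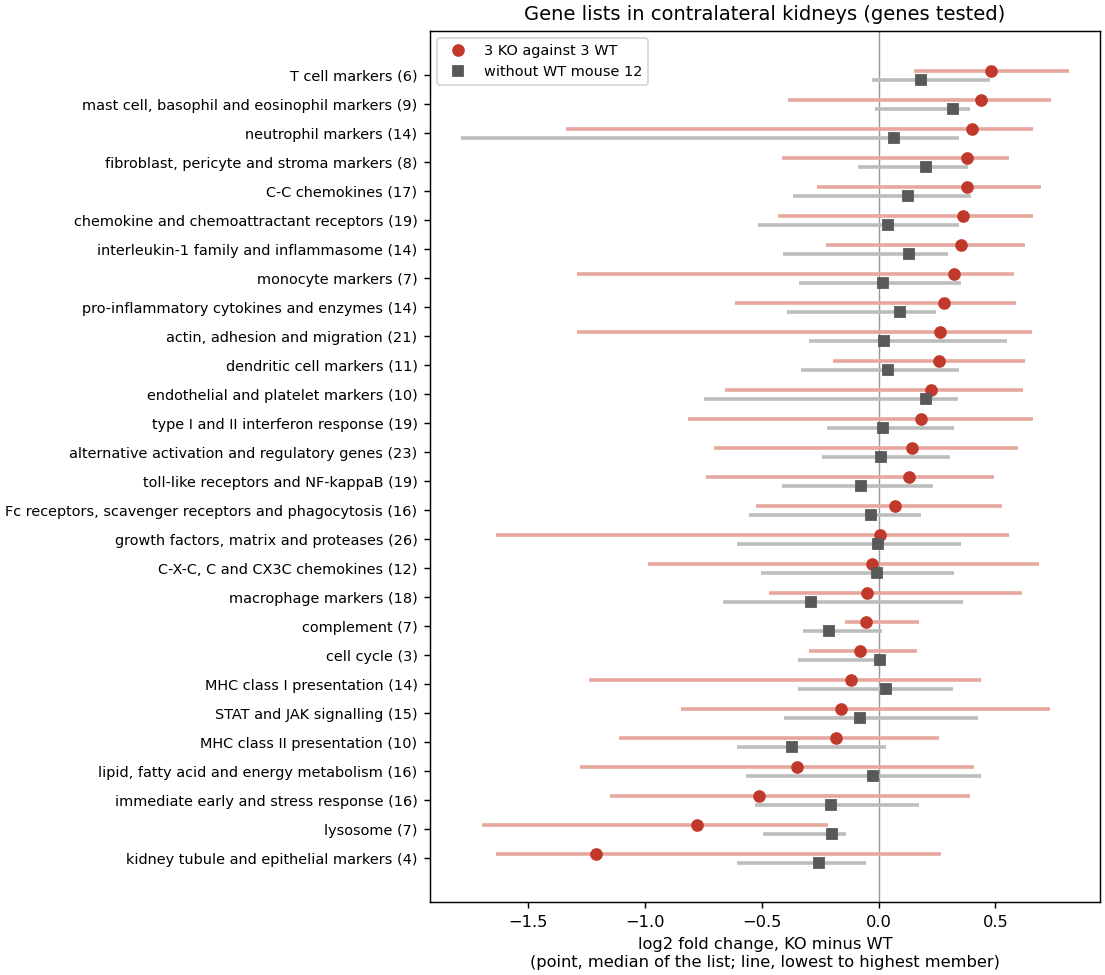
Median log2 fold change (KO minus WT; point) and the lowest and highest member (line) of each gene list with at least 3 tested genes, with all 6 libraries (red circles) and without WT mouse 12 (grey squares). The number of genes tested is in parentheses, and most medians lie nearer 0 without that mouse.

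Regulatory, phagocytic and MHC class I lists had medians from -0.12 to 0.18. The median was 0.14 for 23 genes of alternative activation (0.01 without WT mouse 12), 0.18 for 19 interferon response genes (0.02), 0.07 for 16 phagocytosis genes with Fc and scavenger receptors (-0.03), 0.13 for 19 genes of toll-like receptors and NF-kappaB (-0.08) and -0.12 for 14 MHC class I genes (0.03). Arg1, the arginase of alternatively activated macrophages, had 60, 87 and 51 raw counts in KO mice and 62, 61 and 61 in WT mice. Mrc1, the mannose receptor gene, likewise named after its values were seen, had 112, 114 and 97, against 108, 131 and 157, with overlapping groups. Among 21 actin, adhesion and migration genes, the functions for which Aif1 is known, the median was 0.26, and 0.02 without that mouse.

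Whether the genotype difference of the contralateral kidneys differed from that of the injured kidneys was tested over all 12 libraries with the mouse as a block. Of 682 genes kept there, 0 were called (0%) and 75 had an unadjusted p under 0.05 (11%), with a smallest edgeR adjusted p of 0.407. Without KO mouse 32 it called 323 genes, 160 with a higher and 163 with a lower difference, and without KO mouse 17 it called 1. Housekeeping levels of the injured libraries also differed widely. Their geometric mean was 700.6, 318.2 and 117.7 in KO mice 17, 23 and 32, against 901, 176 and 171.8 in WT mice 12, 26 and 36. The part of these levels in the genes called was not tested. Man2b1, at 1.12 ± 0.33 (the difference in injured minus that in contralateral kidneys), and Icos, at -1.31 ± 0.43, were among the smallest p.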

How the data were processed

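Gene expression was counted with NanoString probes, per the labels' protocols, in F4/80-selected cells. The deposited table holds raw counts: whole numbers whose totals differ between libraries, with the control probes still in place. The sources used here name no panel, counting software or normalization, and no per-sample column was left out. Of 754 gene names, 744 matched a RefSeq symbol and 9 a synonym. A list of usual housekeeping genes matched 20 names, which were set aside. Groups follow the genotype and injury tag in the labels.

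Genes reaching 52.5 counts, which is 2 SD above the mean negative control, in at least 3 of the 6 libraries were tested, 632 of 734. The nearest genes inside the filter, such as Flt3, reached 53 counts in 3 libraries, and those outside, such as Elane, 52. KO was compared with WT in R 4.3.3 with the quasi-likelihood test of edgeR 4.0.16, TMM scaling and Benjamini-Hochberg adjustment, with calls at an adjusted p under 0.05. Only the 6 contralateral libraries entered, since both kidneys of a mouse are not independent. Normalised counts are counts over TMM-scaled library size. The genotype by injury term was fitted over 12 libraries with mouse as a block. Replicate libraries differed by more than sampling noise (chi-square per degree of freedom at least 6.68), with Spearman correlations from 0.762 to 0.927. DESeq2 1.42.0, limma 3.58.1, other scalings, filters, background subtraction and leaving out each mouse were the alternatives. The procedure was tested on simulated data.

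The genes named are Aif1, Adgre1, the 20 with the smallest unadjusted p (since fewer than 10 were called), the members of each list with the smallest p (4 at most), the 25 with the highest mean share and up to 4 members per cell type list with the highest share. The members and the 30 gene lists were chosen with earlier results of these data known. Probe sequences were not used here. Some gene values are not reported here, although list counts and medians include them.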

Additional observations from a re-analysis of the deposited data

How the results depend on the processing

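The count of 0 genes called between KO and WT contralateral kidneys held under DESeq2 size factors, housekeeping, positive control and upper quartile scaling, the DESeq2 test, limma voom, no filter, a filter in all 6 libraries and background subtraction, and with all 12 libraries with no block, with 3 to 87 genes at an unadjusted p under 0.05. Leaving out a mouse gave 0 to 16 genes, 1 without WT mouse 12 (S100a9), 16 without WT mouse 26 and 1 without WT mouse 36 (S100a9). Without WT mouse 12 the count was also 1 (S100a9) with the filter over the other 5 libraries, with positive control or with housekeeping scaling, and 0 with background subtraction, settings chosen after seeing the data. Mouse numbers pair the kidneys of an animal and not KO with WT: with 12 libraries and the mouse as a replicate block the count was 0. The test of the difference between injured and contralateral kidneys gave 0 to 323 genes when a mouse was left out, and 0 with no replicate block. The pairing is the shared animal. Deviations of its kidneys from the group means correlated at -0.49 to 0.957.

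For Aif1 the log2 difference ran from 0.05 on raw counts to 1.02 under housekeeping scaling, and from 0.18 without WT mouse 12 to 0.96 without WT mouse 26. The mean number of genes above background in a library was 611.5, and 635.5 against the highest negative control. The share of the leading genes averaged 36.28%, 40.65% after background subtraction and 34.02% without WT mouse 12.

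Fitted differences of 8 named genes changed sign, and the cause was not tested. Adgre1 gave 0.149 under housekeeping and 0.183 under upper quartile scaling, 0.0464 with 12 libraries and no block, and -0.322 (without WT mouse 12) to 0.251 (without WT mouse 26) when a mouse was left out. With the replicate block S100a8 gave 0.112 and Fcgr3 0.0412, and under housekeeping scaling Mertk gave 0.027. When a mouse was left out, S100a9 ran from -1.89 to 0.342, S100a8 from -0.876 to 0.446, Cd74 from -0.55 to 0.0665, H2-Aa from -0.494 to 0.016, Fcgr3 from -0.556 to 0.0699 and Laptm5 from -0.732 to 0.0306, each highest without WT mouse 26.

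With 3 mice a group and 1 library of far higher housekeeping counts, precision is limited, and counts near the negative controls carry background.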

Other observations

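Among the endothelial and platelet markers, Angpt2, a ligand of the vascular receptor Tek, kept both groups apart before and after scaling. Its raw count was 259, 417 and 371 in KO mice, against 1109, 567 and 804 in WT mice, and its normalised count averaged 420 ± 93.0 in KO and 663 ± 69.8 in WT mice (SD, n = 3 each). The fitted difference was -0.66 ± 0.44 (edgeR adjusted p = 0.55), and -0.75 ± 0.31 without WT mouse 12 (edgeR adjusted p = 0.993). Tek itself and Angpt2 are named after their values were seen. Tek had 156, 143 and 248 raw counts in KO mice, against 884, 99 and 330 in WT mice, with overlapping groups. The median of the 10 markers of this list was 0.23, and 0.20 without that mouse. Under positive control scaling it was -0.40, where that of all genes was -0.58.

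Mx1 and Timp3, both among the 25 leading genes, overlapped between the genotypes. Mx1, an interferon-induced antiviral gene, had 1241, 1500 and 972 raw counts in KO mice and 1067, 1018 and 1600 in WT mice. In WT mouse 12 it stood at 0.86 times the median of the other libraries, the only one of the 25 below that median. Timp3, a metalloprotease inhibitor gene, had 981, 1354 and 1659 counts in KO mice, against 8829, 1232 and 2893 in WT mice. Over 26 growth factor, matrix and protease genes the median fitted difference was 0.00, with 13 values above and 13 below 0.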
